A study of Homo sapiens with 12 samples.

Results

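The genes described here are 33 genes of cholesterol and fatty acid synthesis and of their control, in 2 triple-negative breast cancer cell lines with and without depletion of PACT. They were chosen by symbol, and all 33 were found on 1 gene ID each among the 57500 genes of the deposited count table. All 33 passed the filter on low counts, which 27029 genes passed. By role, 7 act in the mevalonate and isoprenoid steps, 12 in the squalene and sterol steps, 6 in control and 8 in fatty acid synthesis.

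PACT is the product of the PRKRA gene, binds double-stranded RNA and is best known as an activator of the kinase PKR. HCC1806 and MDA-MB-468 are established lines of triple-negative breast cancer, a class defined by lack of oestrogen and progesterone receptors and of HER2 amplification. Total RNA was sequenced from 12 libraries, 3 in each of 4 groups. In HCC1806 the groups received the control guide sgC1 or the guide sgPACT-2, and in MDA-MB-468 the control guide sgNTA or the same sgPACT-2, so the control guide differs between the lines. The labels name no drug, time point or clone, and PRKRA was targeted by 1 guide only. They do not say whether the replicates came from separate cultures, so the p-values measure only the spread between these libraries, which may be technical.

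Cells build cholesterol from acetyl-CoA through mevalonate, isoprenoids, squalene and a series of sterols. Fatty acids come from the same acetyl-CoA by carboxylation, chain assembly, elongation and desaturation. Both sets of genes are classical targets of the SREBP transcription factors, which SCAP carries from the endoplasmic reticulum to the Golgi for cleavage when sterols are low, and which the INSIG proteins hold back when sterols are high. In tumour cells these pathways supply membranes, and their products also serve signalling and protein prenylation.

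Libraries held 18640633 to 44790741 counts in total, with 6.31% to 15.0% of counts in mitochondrial genes, and no 2 libraries held identical values. Levels are CPM (counts scaled to a common library total) after TMM normalisation, and comparisons between genes use RPKM, the CPM per kilobase of exon. PRKRA, the target, was at 77.8 ± 5.3 CPM (SD, n = 3) in HCC1806 with sgC1 and at 36.9 ± 0.774 with sgPACT-2 (log2 fold change -1.07, SE 0.10, edgeR adjusted p = 1.7e-05). In MDA-MB-468 it was at 44.7 ± 3.12 CPM with sgNTA and 38.8 ± 3.09 with sgPACT-2 (log2 fold change -0.20, SE 0.10, adjusted p = 0.958), so at the RNA level the libraries labelled sgPACT-2 in that line did not pass the test for a lower target. Protein levels were not analysed here. The summed level of 5 epithelial markers (EPCAM, CDH1, KRT8, KRT18 and KRT5) ranged from 1845 to 2262 CPM in the HCC1806 controls, 1252 to 1576 in the depleted HCC1806 libraries, 3292 to 3536 in the MDA-MB-468 controls and 2953 to 3587 in the depleted ones. Of the receptor genes, ESR1 was at 20.9 ± 1.81 CPM in the HCC1806 controls and 6.67 ± 0.41 in the MDA-MB-468 controls, PGR was at a group mean of at most 0.16 CPM, and ERBB2 was at 194 ± 14.2 and 140 ± 5.02.

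With sgPACT-2, most of the 33 genes were at lower levels in both lines, by modest amounts. In HCC1806, 31 of 33 log2 fold changes were negative with a median of -0.32 (0.80-fold), and the range was -0.87 to 0.20. Over all genes tested there, 48.5% were negative and the median was 0.01. In MDA-MB-468, 32 of 33 were negative with a median of -0.17 (0.89-fold), and the range was -0.38 to 0.02, while 50.9% of all genes tested were negative with a median of -0.01. Of the 15918 genes averaging 50 counts or more per library, 54.1% had negative values in HCC1806, and MDA-MB-468 had 55.2%.

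Single genes passed the test less often. In HCC1806, 2 of 33 members fell at an edgeR adjusted p under 0.05, SCD and SREBF2, and none rose, against 1.32% of all genes tested called lower and 1.16% called higher. There 12 members had an unadjusted p under 0.05. In MDA-MB-468, 0 of 33 members passed in either direction, against 0% of all genes called lower and 0.170% called higher. By unadjusted p, 7 of the 33 were under 0.05 in MDA-MB-468, and DESeq2 also called 0.

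The 2 lines had unequal spread, and the count of calls depended on how it was modelled. Fitted alone, HCC1806 had a biological coefficient of variation (BCV) of 0.204 and MDA-MB-468 of 0.0936, against 0.171 in the shared model. Fitted alone, HCC1806 gave 0 called members, 8 of them with an unadjusted p under 0.05, against 0.0383% of all genes called lower. Fitted alone, MDA-MB-468 gave 5 members called lower (LSS, SREBF1, INSIG1, FASN and SCD), against 0.299% of all genes. With replicate number as a block, 14 members were called lower in HCC1806 and none higher, against 4.61% of all genes called lower and 2.60% higher. The labels do not say whether equal numbers mark paired samples. The pairing was taken from correlations in these same counts, and not every library went with its number. Control 2 of HCC1806 correlated at 0.415 with depleted 3 and at 0.35 with depleted 2 over 15918 genes. All p-values of the block therefore hold only if that pairing is right, which was not tested. The block gave 0 called members in MDA-MB-468 (13 with an unadjusted p under 0.05), against 0.0222% of all genes called lower and 0.355% higher.

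**Figure D1:**
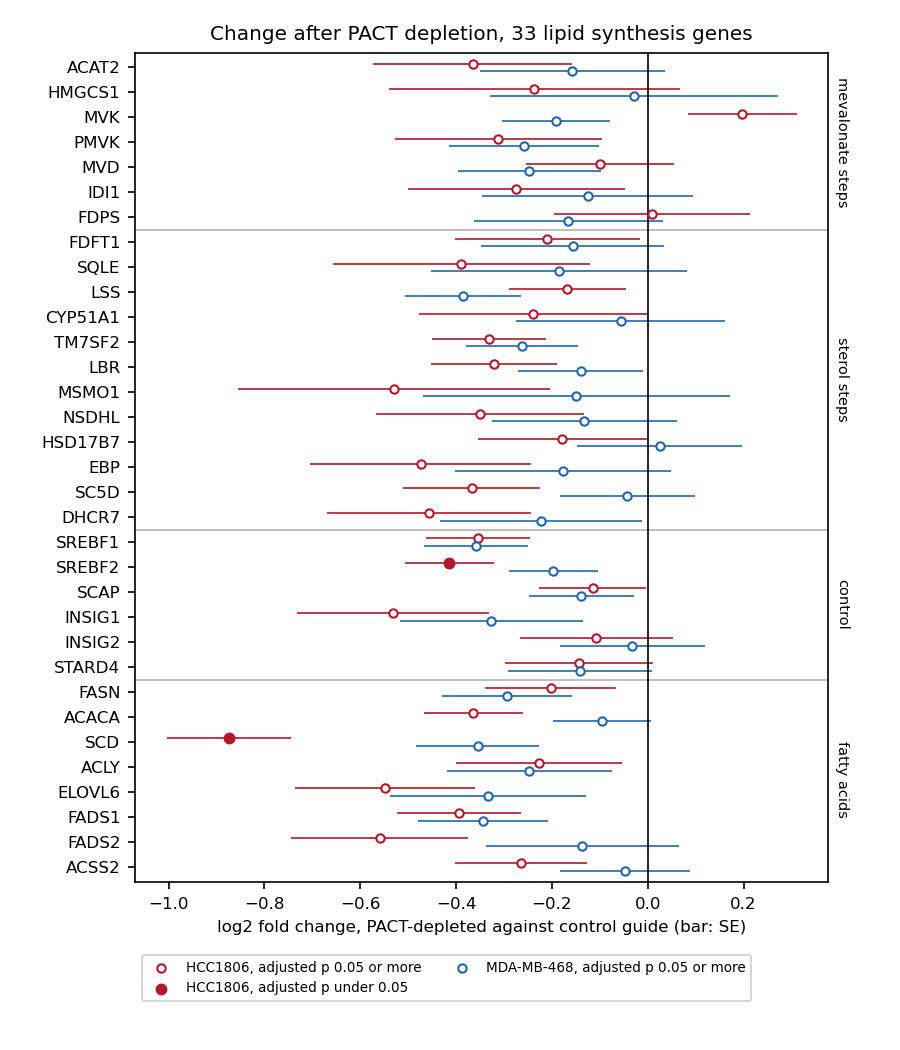
Log2 fold change of each of the 33 genes after PACT depletion, with HCC1806 in red and MDA-MB-468 in blue, bars of 1 SE and filled points for an adjusted p under 0.05. Of the HCC1806 points 31 lie left of zero, of the MDA-MB-468 points 32, and SCD and SREBF2 in HCC1806 are the 2 filled points.

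The libraries of HCC1806 were not alike for these genes. The control library of replicate 1 was the highest of its 3 controls for 30 of 33 members, with a median log2 ratio to the control mean of 0.35, while the other two controls were at -0.23 and -0.14. The depleted library of replicate 1 was likewise the highest of its 3 for 29 members, with a median ratio of 0.03, against -0.39 and -0.54 in the other two. So both number 1 libraries stood above their groups, and the depleted one was level with the control mean. In MDA-MB-468 the depleted medians were -0.08, -0.25 and -0.24, and replicate 1 was again the highest for 27 members.

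The HCC1806 median of the members moved farther without either number 1 library of that line than under any other setting. It was -0.09 without the control library of replicate 1 and -0.45 without the depleted library of replicate 1. Without both number 1 libraries of HCC1806 the median was -0.27, and 9 members were called lower in that line (LBR, EBP, DHCR7, SREBF1, SREBF2, ACACA, SCD, ELOVL6 and FADS1), against 2.84% of all genes tested in that fit. The same fit called 3 members lower in MDA-MB-468 (LSS, SREBF1 and SCD), against 0.0417% of all genes.

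Counted library by library, 15 of 33 members had all 3 depleted HCC1806 libraries below the mean of the controls, 1 had all above and 17 were mixed. In MDA-MB-468, 23 had all 3 below, none had all above and 10 were mixed. The shares over all genes tested were 21.9% and 21.7% below. The groups separated fully, every depleted library below every control, for 5 members in HCC1806 (TM7SF2, SREBF1, SREBF2, ACACA and SCD) against 8.17% of all genes. In MDA-MB-468 they did so for 18 members against 6.94% of all genes. No member had every depleted library above every control in either line.

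**Figure D2:**
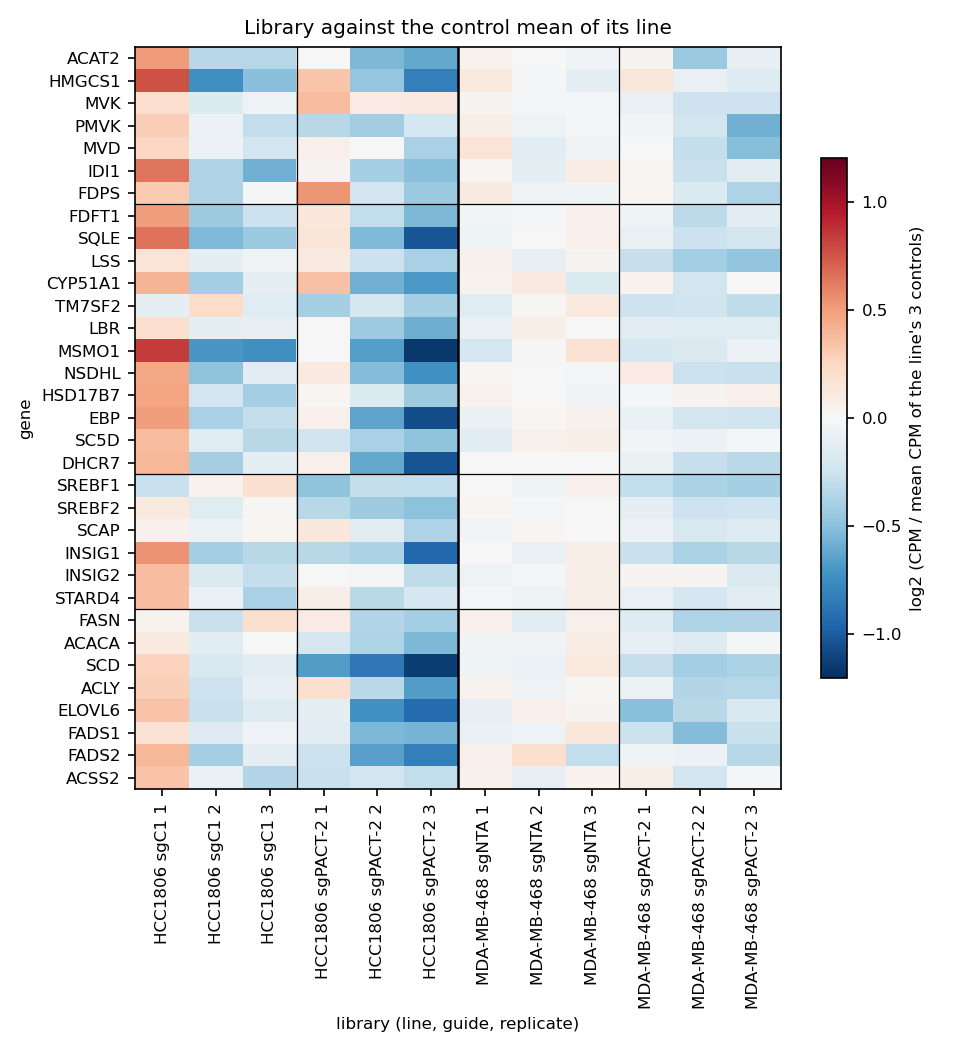
Log2 ratio of each library to the mean CPM of the 3 controls of its line, for the 33 genes (rows) and 12 libraries (columns), with red above and blue below that mean. The control library of replicate 1 in HCC1806 is red for most rows, with a median of 0.35, and the depleted libraries of replicates 2 and 3 are blue, with medians of -0.39 and -0.54.

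Control genes come first, since the group holds the SREBP genes with SCAP and the INSIG genes. SREBF2 (ENSG00000198911, GRCh38 chromosome 22, 41833079 to 41907308, plus strand) encodes SREBP-2, the factor best known for driving cholesterol genes. In HCC1806 it was at 439, 367 and 409 CPM in the sgC1 libraries and at 323, 302 and 288 in the sgPACT-2 libraries. Every depleted library was below every control. The log2 fold change was -0.41 (SE 0.09, 0.75-fold, edgeR adjusted p = 0.0266, and 0.00278 with the replicate block). The call was lost when the line was fitted alone (adjusted p = 0.221). It was also lost without HCC1806 sgC1 replicate 1 (0.0729), HCC1806 sgPACT-2 replicate 2 (0.0655), MDA-MB-468 sgNTA replicate 2 (0.0530) or MDA-MB-468 sgNTA replicate 3 (0.0512).

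In MDA-MB-468, SREBF2 was at 597, 585 and 587 CPM with sgNTA and at 547, 497 and 499 with sgPACT-2. The groups did not overlap here either, but the log2 fold change of -0.20 (SE 0.09) had an adjusted p of 0.947. The difference between the effects in the lines was 0.22 (adjusted p = 0.702). An antisense RNA, SREBF2-AS1, overlaps exons of this gene, and the strand setting of the counting is not given in the sources used here.

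SREBF1 (ENSG00000072310, chromosome 17, 17810399 to 17837002, minus strand) encodes SREBP-1, the factor best known for fatty acid genes. It was at 380, 470 and 518 CPM in the HCC1806 controls and 326, 374 and 371 in the depleted libraries. In MDA-MB-468 it was at 652, 628 and 682 CPM with sgNTA and 533, 504 and 495 with sgPACT-2. In both lines every depleted library was below every control, and in HCC1806 the library of replicate 1 was the lowest of its group on both sides, unlike most members. The log2 fold changes differed by less than their SE, at -0.35 (SE 0.11, adjusted p = 0.107) in HCC1806 and -0.36 (SE 0.11, adjusted p = 0.479) in MDA-MB-468. In HCC1806 the gene passed with the replicate block (adjusted p = 0.0109) and by DESeq2 (0.0333), and in MDA-MB-468 when that line was fitted alone (0.0011). Its exons overlap RAI1 on the other strand.

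INSIG1 (ENSG00000186480, chromosome 7, 155297776 to 155310235, plus strand) encodes the sterol-regulated anchor of SCAP and is itself a classical SREBP target. In HCC1806 it was at 52.2, 27.2 and 28.7 CPM with sgC1 and 28.6, 27.8 and 18.7 with sgPACT-2. The groups overlapped, and 1 control library stood far above the other two. The log2 fold change was -0.53 (SE 0.20, adjusted p = 0.202, and 0.0236 with the replicate block), but -0.17 without sgC1 replicate 1. In MDA-MB-468, INSIG1 was at 144, 137 and 154 CPM with sgNTA and 120, 111 and 115 with sgPACT-2. Those groups did not overlap, and the log2 fold change was -0.33 (SE 0.19, adjusted p = 1, and 0.00858 when the line was fitted alone).

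The remaining control genes had small changes between the groups, and none passed the test in the shared model. SCAP, the escort of the SREBPs, was at 69.1, 63.4 and 67.7 CPM in the HCC1806 controls and 72.8, 60.6 and 51.8 after depletion, and at 145, 151 and 149 then 142, 129 and 133 CPM in MDA-MB-468. The HCC1806 groups overlapped and the MDA-MB-468 groups did not, with log2 fold changes of -0.11 (SE 0.11, adjusted p = 0.741) and -0.14 (SE 0.11, adjusted p = 1). Scaling by library size alone put the HCC1806 value at 0.00305. INSIG2, a second anchor, was at 16.2, 11.1 and 10.3 CPM then 12.4, 12.4 and 10.1 in HCC1806, and at 25.1, 25.8 and 27.7 CPM then 26.8, 26.8 and 23.3 in MDA-MB-468. Its groups overlapped in both lines, and its log2 fold changes of -0.11 (SE 0.16) and -0.03 (SE 0.15) took the opposite sign under scaling by library size alone (0.02 in both). STARD4, a sterol carrier protein, had log2 fold changes of -0.14 in both lines (SE 0.15). Summed over the 6 control genes, HCC1806 went from 1009 ± 45.4 to 789 ± 18.9 CPM and MDA-MB-468 from 1605 ± 38.4 to 1339 ± 60.1 (SD, n = 3), and most of that sum is SREBF1 and SREBF2.

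Promoter stretches of SREBF2, SCD and INSIG1 are printed because SCD and SREBF2 are the members that passed the test and INSIG1 is the feedback gene of the pathway. They are RefSeq sequence of GRCh38.p14, 5′ to 3′ on the gene's strand, and end just before the gene starts of GENCODE 29, which lie upstream of the RefSeq starts. Capitals mark the sterol regulatory element core TCACCCCAC, the CCAAT box and its reverse complement ATTGG, which is the site of NF-Y, a known partner of the SREBPs. The marked matches do not overlap. SREBF2 is shown for chr22:41832855-41833078, SCD for chr10:100346983-100347123 and INSIG1 for chr7:155297628-155297775, all plus strand.
SREBF2: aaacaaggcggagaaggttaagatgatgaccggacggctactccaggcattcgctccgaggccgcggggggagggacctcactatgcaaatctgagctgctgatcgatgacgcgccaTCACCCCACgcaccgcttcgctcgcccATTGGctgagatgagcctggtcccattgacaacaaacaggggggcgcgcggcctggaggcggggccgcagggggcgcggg
SCD: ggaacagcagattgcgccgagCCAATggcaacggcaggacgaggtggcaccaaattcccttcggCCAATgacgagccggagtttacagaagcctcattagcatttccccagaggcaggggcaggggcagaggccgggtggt
INSIG1: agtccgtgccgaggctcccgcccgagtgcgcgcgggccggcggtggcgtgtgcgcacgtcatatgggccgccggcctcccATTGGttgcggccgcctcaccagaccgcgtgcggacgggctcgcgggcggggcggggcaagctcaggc

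In the SREBF2 stretch the element core begins 107 bases and the ATTGG 80 bases before the end of the stretch. The SCD stretch holds CCAAT at 120 and 77 bases before its end, and the INSIG1 stretch holds ATTGG at 68. The same letters were searched on both strands from 250 bases before to 50 after the RefSeq start of the 29 members found in the RefSeq promoter table and of all 27305 genes with a window, taking the first listed start of each gene. The exact element core TCACCCCAC was in 1 of 29 member windows (3.4%, SREBF2) and in 0.425% of all windows. Only those exact letters were searched and marked, so a window or printed stretch without them is not shown to lack a sterol regulatory element. CCAAT was in 18 of 29 (62.1%) against 35.7% of all, GGGCGG, the core of the GC box, in 26 (89.7%) against 44.6%, and the E-box CACGTG in 4 (13.8%) against 7.43%. Of the 29 members 9 have several listed starts, and counting a match at any of them gave CCAAT in 21 (72.4%) against 39.7% of all genes. These shares describe letters in fixed windows and show no binding.

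No mevalonate or isoprenoid gene passed the test. In HCC1806, 5 of 7 log2 fold changes were negative (median -0.24) and in MDA-MB-468, 7 of 7 (median -0.17), and none had an unadjusted p under 0.05 in either line. No fit of the replicate block, DESeq2 or a single line called any of the 7. ACAT2, which condenses acetyl-CoA at the start of the pathway, had the smallest p of the group in HCC1806. It was at 27.9, 15.4 and 15.4 CPM with sgC1 and 19.5, 13.5 and 12.8 with sgPACT-2, and at 107, 103 and 101 then 106, 76.0 and 97.2 in MDA-MB-468. The groups overlapped in both lines, with log2 fold changes of -0.37 (SE 0.21, adjusted p = 0.468) and -0.16 (SE 0.19, adjusted p = 1), and the HCC1806 value was -0.03 without sgC1 replicate 1. Its exons overlap SOD2 and TCP1 on the other strand.

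MVK, mevalonate kinase, was the member for which all depleted libraries lay on opposite sides of the control mean in the lines. It was at 53.7, 41.8 and 45.1 CPM in the HCC1806 controls and 60.5, 50.3 and 50.5 after depletion, and 2 of the depleted libraries were within the range of the controls. In MDA-MB-468 it was at 55.7, 53.8 and 53.6 CPM then 51.0, 45.8 and 45.9, with every depleted library below every control. The log2 fold changes were 0.20 (SE 0.11, adjusted p = 0.474) and -0.19 (SE 0.11, adjusted p = 1). Their difference was -0.39 (unadjusted p = 0.0261, adjusted p = 0.505), which did not pass. HMGCS1, which makes HMG-CoA, PMVK and MVD, the next kinase and decarboxylase, IDI1, the isopentenyl isomerase, and FDPS, farnesyl diphosphate synthase, had log2 fold changes between -0.31 and 0.01 in HCC1806 and between -0.26 and -0.03 in MDA-MB-468.

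Among the 12 genes of the squalene and sterol steps, all 12 values were negative in HCC1806 (median -0.34) and 11 of 12 in MDA-MB-468 (median -0.15), with none called in the shared model. The replicate block called 6 of the 12 lower in HCC1806. They were SQLE, the squalene epoxidase (log2 fold change -0.36), LBR, a sterol reductase of the nuclear envelope (-0.33), MSMO1, the sterol C4 oxidase (-0.41), EBP, the sterol isomerase (-0.49), SC5D, the sterol desaturase (-0.34), and DHCR7, the final reductase (-0.49), with adjusted p from 0.00626 to 0.0477. Their log2 fold changes in MDA-MB-468 lay between -0.23 and -0.04 in the blocked fit and none passed.

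TM7SF2, a sterol reductase, had the smallest p of the sterol genes in HCC1806. It was at 33.4, 42.2 and 32.7 CPM with sgC1 and 27.4, 31.2 and 27.4 with sgPACT-2, and at 38.4, 43.1 and 46.3 then 36.0, 36.2 and 34.5 in MDA-MB-468. The groups did not overlap in either line, but neither value passed (-0.33, SE 0.12, adjusted p = 0.176, and -0.26, SE 0.12, adjusted p = 0.919).

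LSS, lanosterol synthase, had the smallest p of the sterol genes in MDA-MB-468. There it was at 286, 258 and 283 CPM with sgNTA and 227, 207 and 199 with sgPACT-2, with no overlap. The log2 fold change was -0.38 (SE 0.12, adjusted p = 0.529 in the shared model and 0.00108 with the line alone). In HCC1806 it was at 134, 111 and 117 CPM then 129, 100 and 91.9, with overlap, and the value was -0.17 (SE 0.12, adjusted p = 0.611).

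MSMO1, named after its values were seen, shows how far single libraries reached. Its HCC1806 controls were at 135, 46.6 and 45.4 CPM and its depleted libraries at 76.0, 47.9 and 34.0. The number 1 libraries were the highest on both sides and the groups overlapped. The log2 fold change was -0.53 (SE 0.33, adjusted p = 0.515), larger in size than that of SREBF2 but with a much larger standard error. FDFT1, the squalene synthase, CYP51A1, the lanosterol demethylase, NSDHL and HSD17B7, both of C4 demethylation, had HCC1806 values of -0.35 to -0.18, and HSD17B7 was the only positive member in MDA-MB-468 (0.02, SE 0.17). Exons of CYP51A1 overlap another gene on the same strand, so its counts are uncertain.

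**Figure D3:**
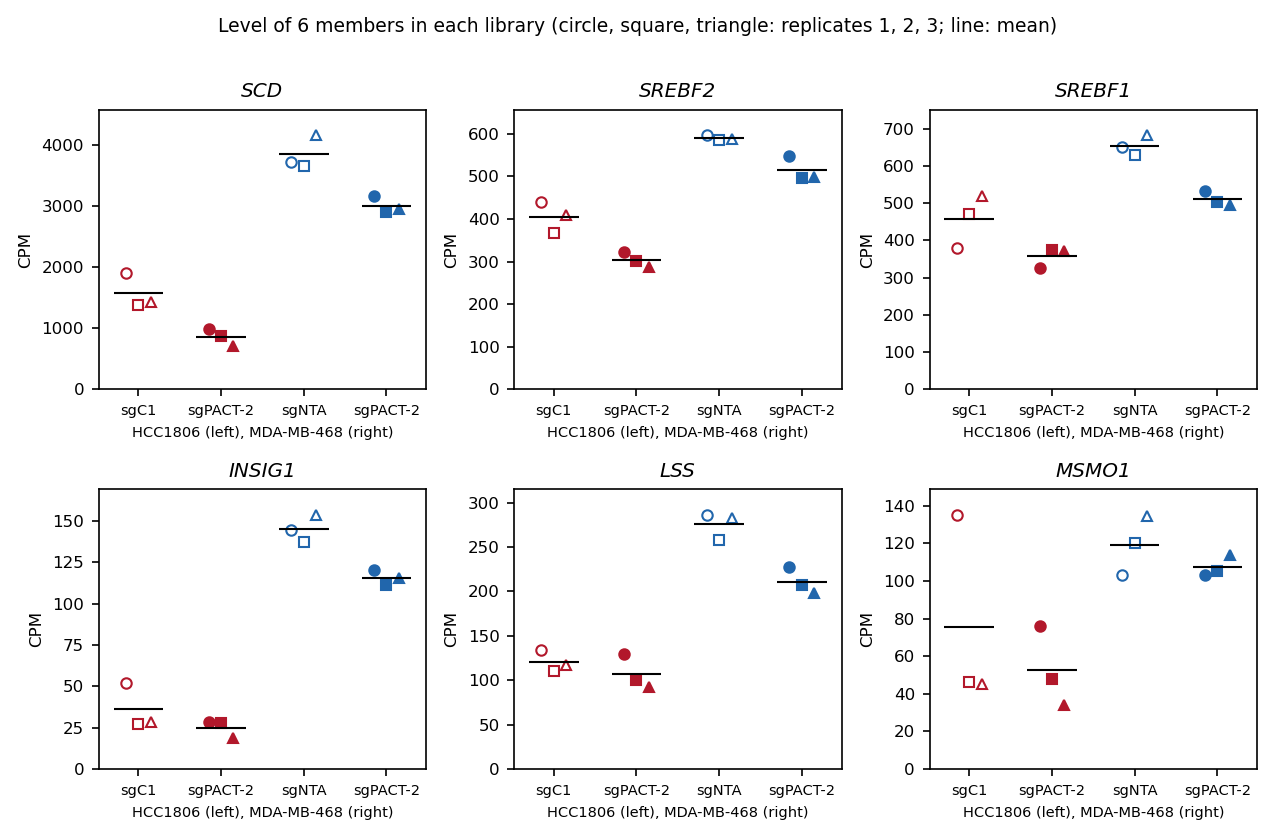
CPM in each library of 6 of the genes, by line and guide, with circle, square and triangle for replicates 1, 2 and 3 and a line for the group mean. SCD, SREBF2 and SREBF1 separate in both lines, while the HCC1806 groups of INSIG1, LSS and MSMO1 overlap and their replicate 1 libraries are the highest.

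The fatty acid genes held the largest change. SCD (ENSG00000099194, chromosome 10, 100347124 to 100364834, plus strand) encodes stearoyl-CoA desaturase, which makes oleate and palmitoleate, and was the most abundant member per exon length in both lines. In HCC1806 it was at 1902, 1383 and 1437 CPM with sgC1 and 992, 868 and 717 with sgPACT-2. Every depleted library was below every control by a wide margin. The log2 fold change was -0.87 (SE 0.13, 0.55-fold, edgeR adjusted p = 0.0017). The call held in each of the 12 fits without 1 library, with adjusted p from 3.2e-05 to 0.00684, and was lost with HCC1806 fitted alone (adjusted p = 0.0630).

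In MDA-MB-468, SCD was at 3729, 3664 and 4168 CPM with sgNTA and 3174, 2909 and 2955 with sgPACT-2. The groups did not overlap, and the log2 fold change of -0.36 (SE 0.13) had an adjusted p of 0.718 in the shared model. The effect was smaller in MDA-MB-468 by 0.52 on the log2 scale. That difference did not pass in the shared model (adjusted p = 0.413) and passed with the replicate block (adjusted p = 0.0366).

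All 8 fatty acid genes had negative values in both lines, with medians of -0.38 in HCC1806 and -0.27 in MDA-MB-468, and SCD was the only one called in the shared model. With the replicate block 5 were called lower in HCC1806: SCD, ACACA, the carboxylase that makes malonyl-CoA (log2 fold change -0.37, adjusted p = 0.00845), ELOVL6, the elongase of palmitate (-0.56, 0.00441), and the desaturases of polyunsaturated fatty acids FADS1 (-0.40, 0.00883) and FADS2 (-0.54, 0.00454). FADS1 and FADS2 are neighbours with overlapping exons, so reads of the overlap are uncertain. FASN, the fatty acid synthase, was at 847, 685 and 938 CPM with sgC1 and 882, 646 and 619 with sgPACT-2, with overlap and no call (-0.20, SE 0.14, adjusted p = 0.569). In MDA-MB-468 it was at 4043, 3541 and 4031 CPM then 3471, 3000 and 3008, with no overlap (-0.29, SE 0.14, adjusted p = 0.942, and 0.0156 with the line alone). ACLY and ACSS2, which supply acetyl-CoA from citrate and acetate, had values of -0.23 and -0.26 in HCC1806 and -0.25 and -0.05 in MDA-MB-468.

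Summed over all 33 genes, the level went from 5483 ± 856 to 4030 ± 687 CPM in HCC1806 and from 13329 ± 618 to 11040 ± 735 in MDA-MB-468. The HCC1806 ranges met, with the lowest control at 4757 and the highest depleted library at 4780 CPM, and those of MDA-MB-468 did not. By replicate number the HCC1806 sum went from 6427 to 4780, from 4757 to 3879 and from 5266 to 3431 CPM, lower in each of the 3 same-numbered pairs. That pairing was taken from the counts and is not stated by the labels. Fatty acid genes made up most of each sum, at 3176 ± 452 then 2185 ± 378 CPM in HCC1806 and 8693 ± 533 then 7037 ± 472 in MDA-MB-468. A sum of CPM gives most weight to the most abundant genes, here SCD and FASN, and does not describe all members equally. The 19 cholesterol genes of the mevalonate and sterol steps were at 1297 ± 413 then 1056 ± 298 CPM and at 3031 ± 46.8 then 2665 ± 203.

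Whether the effect differed between the lines was tested gene by gene. No member passed (0 of 33, with 2 at an unadjusted p under 0.05, SCD and MVK), against 0.0222% of all genes called higher and 0.0999% lower. DESeq2 called 0 and the replicate block called SCD alone. A call in 1 line and none in the other is therefore not shown to be a difference for SREBF2.

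The control libraries of the lines also differed from each other. Of the 33 members, 23 were higher and 5 lower in MDA-MB-468 with sgNTA than in HCC1806 with sgC1 (edgeR adjusted p under 0.05), against 34.2% and 40.1% of all genes tested. The median log2 difference was 1.19 (2.29-fold), where all genes tested had -0.26 and those averaging 50 counts or more had 0.30. Line and control guide cannot be told apart here. All 6 control genes were higher in MDA-MB-468, INSIG1 by 2.01, SCAP by 1.15, SREBF2 by 0.54 and SREBF1 by 0.52 on the log2 scale. Early cholesterol genes had a median difference of 2.25, led by PMVK at 3.42 (SE 0.19, 10.7-fold), and the sterol genes 1.28.

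The fatty acid genes split. FASN (2.23), ACSS2 (1.56), ACLY (1.54) and SCD (1.29) were higher in MDA-MB-468, while ACACA (-0.30), ELOVL6 (-2.58), FADS2 (-2.99) and FADS1 (-3.00) were lower, so the synthase and the polyunsaturated fatty acid desaturases went opposite ways. SQLE was lower by 0.61 with an adjusted p of 0.0499. HMGCS1, MVK, TM7SF2, LBR and MSMO1 did not pass. In MDA-MB-468, FADS1 was at 14.8, 15.1 and 17.3 CPM in the controls, where HCC1806 had 142, 113 and 122, with no overlap.

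Per exon length, the order within a line showed the same split. SCD was at 294 RPKM in the controls of HCC1806 and 719 in the MDA-MB-468 controls, and FASN at 87.9 and 413. DHCR7 was at 55.2 and 184, SREBF1 at 56.8 and 81.5 and SREBF2 at 53.6 and 78.0 RPKM. PMVK was lowest in HCC1806 at 1.54 RPKM, and FADS2 (0.677), ELOVL6 (0.910) and FADS1 (1.54) were lowest in MDA-MB-468.

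**Figure D4:**
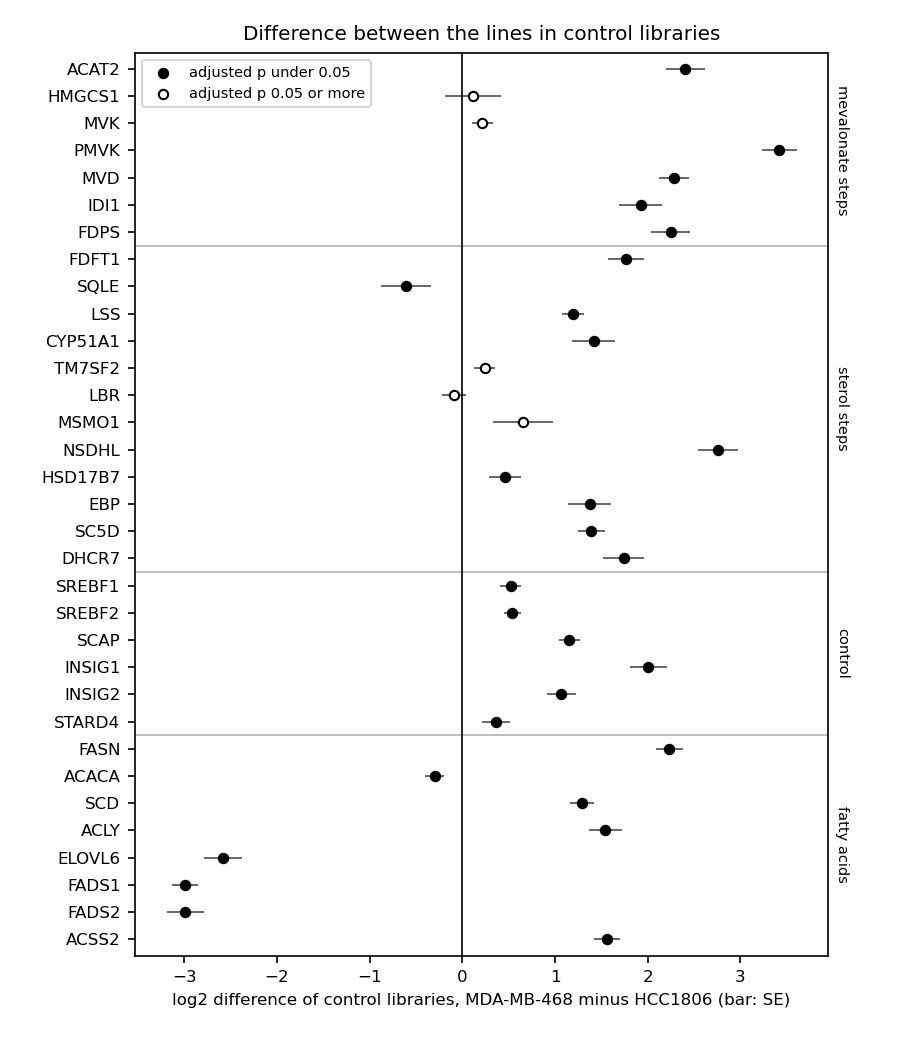
Log2 difference of the control libraries, MDA-MB-468 with sgNTA minus HCC1806 with sgC1, for the 33 genes, with bars of 1 SE and filled points for an adjusted p under 0.05. Of the points 23 filled ones lie right of zero, and FADS1, FADS2 and ELOVL6 lie farthest left at -3.00, -2.99 and -2.58.

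Genes next to the pathway were read from 5 further lists. Over all genes tested in HCC1806, 1.32% were called lower and 1.16% higher. In the list of SREBP processing and turnover, ERLIN1 (log2 fold change -0.61, adjusted p = 0.0233) and ERLIN2 (-0.44, 0.0373), which form a complex in the membrane of the endoplasmic reticulum, fell in HCC1806, and no gene rose. The site-1 and site-2 proteases that cleave the SREBPs, MBTPS1 and MBTPS2, were at -0.28 and -0.35 and did not pass. Of 12 genes of cholesterol efflux, storage and transport, 2 fell, NPC2, a lysosomal cholesterol carrier (-0.57, 0.0115), and LIPA, the lysosomal acid lipase (-0.66, 0.0255). The median of that list was -0.12.

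Of 20 other fatty acid and glycerolipid genes, 19 had negative values in HCC1806, with a median of -0.33. Of all genes tested 48.5% were negative, and of those averaging 50 counts or more 54.1%. Of the 20 genes, 4 fell and none rose, against 1.32% of all genes called lower and 1.16% higher. The 4 were TECR (-0.51, adjusted p = 0.0055) and HACD3 (-0.49, 0.0388), enzymes of the elongation cycle, and ACSL1 (-0.57, 0.0133) and ACSL3 (-0.44, 0.0429), which activate fatty acids. Of 8 genes of fatty acid oxidation, 1 fell, HADHA of the mitochondrial trifunctional protein (-0.38, 0.0286). Of 11 genes of the isoprenoid branches, which lead from farnesyl diphosphate to dolichol, ubiquinone and prenylated proteins, none passed and 1 had an unadjusted p under 0.05, COQ2 (-0.40, adjusted p = 0.126). The replicate block and DESeq2 also called none of them, and their median was 0.01. With HCC1806 fitted alone, no gene of these lists passed, against 0.0383% of all genes called lower. With the replicate block 4 genes of efflux, storage and transport and 11 fatty acid and glycerolipid genes fell. The block called 3 of oxidation lower and 0 of the isoprenoid branches, against 4.61% of all genes.

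In MDA-MB-468 none of the 5 lists had a called gene in the shared model, with medians of -0.10 to -0.02, and the replicate block and DESeq2 called none. Of their genes, 4 had an unadjusted p under 0.05. With that line fitted alone, the cholesterol exporters ABCA1 and ABCG1 were called lower, against 0.299% of all genes. In the shared model ABCA1 had a log2 fold change of -0.46 (SE 0.16) and ABCG1 of -0.32 (SE 0.29).

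Markers moved in HCC1806 beside these genes. Of the 5 epithelial markers, 3 fell there, KRT5 from 767 ± 160 to 406 ± 107 CPM (log2 fold change -0.92, adjusted p = 0.0106), EPCAM from 197 ± 30.7 to 135 ± 25.2 (-0.55, 0.0335) and CDH1 from 412 ± 14.3 to 316 ± 31.6 (-0.38, 0.0373). Over all genes tested there, 1.32% were called lower. With HCC1806 fitted alone 0 of the 5 passed, against 0.0383% of all genes called lower. The replicate block called 4, KRT8 added, against 4.61% of all genes. None of the 5 was called in MDA-MB-468. ERBB2 was not called in HCC1806 in the shared model. It was called lower there by the replicate block, by DESeq2 and without both number 1 libraries of HCC1806. Of 4 markers of other cell types, edgeR and DESeq2 called 0 in either line, with 1 at an unadjusted p under 0.05 in HCC1806. The replicate block called 1 of them higher in HCC1806, against 2.60% of all genes. PTPRC and COL3A1 were at or near 0, at most 0.801 CPM in any library, PECAM1 was at most 1.89 CPM, and COL1A1 was at 33.4 ± 6.43 then 44.5 ± 6.10 CPM in HCC1806. The part of the epithelial change in the lipid gene values was not tested. Counts in bulk RNA cannot tell fewer cells of a kind from less RNA per cell.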

How the data were processed

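RNA of 12 libraries (3 in each of 4 groups) was sequenced after DNase treatment and rRNA depletion, with a NEBNext Ultra II RNA kit, per the labels' protocols. The deposited table holds raw read counts per Ensembl gene. Per the submitters' processing notes the authors used Trimmomatic 0.36, STAR 2.5.2b and featureCounts of Subread 1.5.2 on GRCh38; annotation release and strand setting are not given in the sources used here. Of 57500 gene IDs, 56898 were found in GENCODE 29, which gave coordinates and exon lengths, and unnamed genes held 0.0284% of counts. Exons of 15 members overlap another gene, 4 of them on the same strand, and 5 members have pseudogenes named after them, so their counts are uncertain where reads are shared.

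Genes passing filterByExpr (27029 of 44375 with a count) were fitted with edgeR 4.0.16 in R 4.3.3: TMM, 1 quasi-likelihood model over 12 libraries with a coefficient per group, two-sided tests, Benjamini-Hochberg over all genes, threshold 0.05. CPM are TMM-scaled. The procedure was tested on simulated counts, with changes larger than that of any member after depletion and the same spread in both lines. That test does not cover changes as small as those of the members. Alternatives were DESeq2 1.42.0, other scalings and filters, each line alone, a replicate block and 12 fits without 1 library. Leaving out both number 1 libraries of HCC1806 was chosen after seeing the data. Deviations from group means of same-numbered control and depleted libraries correlated at 0.533, 0.35 and 0.158 in HCC1806 and at 0.189, 0.104 and 0.178 in MDA-MB-468 over 15918 genes, so the numbers were taken to pair the samples. The pairing comes from these correlations, not from the labels, and control 2 of HCC1806 correlated more with depleted 3 (0.415) than with depleted 2. Over the 33 members, control 2 correlated at 0.81 with depleted 3 and at 0.471 with depleted 2. Same-numbered libraries correlated over the members at 0.645, 0.471 and 0.259 in HCC1806 and at 0.722, 0.234 and 0.404 in MDA-MB-468. The members and lists were chosen with earlier results of these data known. Genes given in every library were the regulators, members past the threshold and, in each role and line, the member with the smallest p; of each further list, the 3 with the smallest p in a line could be named, and FASN, MSMO1, FADS1 and other genes outside this rule were chosen after their values were seen. Promoter windows are from RefSeq. The lowest group median of a member was 34 counts. The result of 1 gene of the SREBP processing list is not reported here.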

Additional observations from a re-analysis of the deposited data

Results flagged for a closer look

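MVK had effects of opposite direction in the lines. All 3 depleted libraries were above the control mean in HCC1806 and all 3 below it in MDA-MB-468, and the effect in MDA-MB-468 minus that in HCC1806 was -0.39 on the log2 scale. The edgeR test of that difference had an unadjusted p of 0.0261 and an adjusted p of 0.505, so it did not pass. Opposite directions in every library were seen for 5.78% of all genes tested. MVK shares exonic bases with MMAB on the other strand, and the part of that overlap was not tested.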

How the results depend on the processing

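The count of members called in HCC1806, 2 in the shared model, was 4 by DESeq2, 12 with no filter on low counts, 0 with the line alone, 14 with the replicate block, 9 without both number 1 libraries of HCC1806, 1 at an adjusted p under 0.01 and 1 when changes smaller than 0.5 on the log2 scale were left out. Without 1 library each it ranged from 1 (without HCC1806 sgPACT-2 replicate 2, MDA-MB-468 sgNTA replicate 2 or sgNTA replicate 3) to 12 (without HCC1806 sgPACT-2 replicate 1). Over all genes tested in HCC1806, 1.32% were called lower in the shared model, 0.0383% with the line alone and 4.61% with the replicate block. Without both number 1 libraries the share was 2.84%. DESeq2 called 756 of all genes lower, against 358 in the shared model. Shares were not computed for the fits with no filter or without 1 library. In MDA-MB-468 the count of 0 became 5 with the line alone, against 0.299% of all genes called lower. It became 3 without both number 1 libraries of HCC1806, against 0.0417%, and stayed at 0 in all 12 fits without 1 library. The interaction count of 0 became 1 with the replicate block. The causes were not tested. Between the control libraries, 25 to 31 members passed without 1 library each. The median over members ranged from -0.45 to -0.09 in HCC1806 and from -0.25 to -0.14 in MDA-MB-468 in those fits.

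Reversals were all of values near 0. SCAP in HCC1806 was 0.00305 under library size only. INSIG2 in HCC1806 was 0.0220 under library size only and 0.0690 without both number 1 libraries, and ranged from -0.235 to 0.118 without 1 library each (0.118 without sgC1 replicate 1). INSIG2 in MDA-MB-468 was 0.0184 under library size only and ranged from -0.0689 to 0.0355 without 1 library each (0.0122 without sgNTA replicate 3, 0.0355 without sgPACT-2 replicate 3). Scaling by library size only moved the median of all genes in HCC1806 to 0.13, with 28 of 33 members negative there and 29 in MDA-MB-468. For the single genes followed, 410 alternative values kept direction and call, 15 newly passed, 6 no longer passed and 7 changed sign. Apart from the calls named here and in the results, the replicate block changed none of those followed.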
